A study of Mus musculus with 45 samples.

Results

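The genes described here are 32 genes of glycolysis and of the hypoxia response, chosen by name, out of 55367 gene symbols counted in the mouse tissues of this study. They comprise the glucose transporter Slc2a1, 14 enzymes of the glycolytic chain, 3 genes that steer pyruvate and lactate (Ldha, Slc16a3 and Pdk1), 4 genes of the oxygen-sensing machinery (Hif1a, Epas1, Egln1 and Egln3) and 10 further genes known to be induced by hypoxia-inducible factors. All 32 were in the table and were tested in every tissue.

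Tissues were taken on day 14 from female Balb/c mice that carried a porous polycaprolactone scaffold under the skin, an implant used as an engineered metastatic site. Tumor-bearing mice had received 2000000 cells of the 67NR, 4T07 or 4T1 line, in 50 uL of buffer, at the orthotopic (mammary) site, and healthy control mice had no tumor. The 3 lines are sisters derived from a single mammary tumor: 67NR is nonmetastatic, 4T07 is invasive but does not form metastases, and 4T1 metastasizes, mainly to the lung. Scaffolds, lungs and spleens were sequenced from control, 67NR, 4T07 and 4T1 mice and primary tumors from the 3 lines, with 3 libraries in each of 15 groups and 45 libraries in all. The libraries are of whole tissue, so that fewer cells of a type and less RNA per cell cannot be told apart, and the labels neither link the tissues of a mouse nor say that replicates are separate mice, so the p-values below measure the spread between these samples.

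Glycolysis converts glucose to pyruvate in the cytosol and yields ATP without oxygen. When oxygen is short, the prolyl hydroxylases Egln1 and Egln3 no longer mark the HIF alpha subunits, encoded by Hif1a and Epas1, for destruction, and the stabilized proteins enter the nucleus and bind the core sequence ACGTG or GCGTG near their target genes. HIF targets raise glucose uptake and glycolytic flux, divert pyruvate from the mitochondria to lactate, export the lactate and its acid, and recruit vessels. Because Hif1a protein is controlled mainly by its degradation, its mRNA is not a measure of its activity, whereas the mRNA of the targets follows it more closely. Tumors with high glycolytic flux and poorly perfused regions commonly express these genes strongly.

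The promoters of 6 members are shown because these genes differed strongly between tumors (Slc16a3, Pdk1, Car9, Bnip3 and P4ha2, all higher in the 4T07 and 4T1 tumors) or went the other way (Adm). Others that differed as strongly, such as Hk2 and Ankrd37, are not shown. The sequences are the 250 bases before the RefSeq gene start on build GRCm38.p6, written 5′ to 3′ on the strand of the gene, with the letters ACGTG and GCGTG in capitals on either strand. They lie at chr11:120948817-120949066, plus strand for Slc16a3, chr2:71872974-71873223, plus strand for Pdk1, chr4:43506776-43507025, plus strand for Car9, chr7:138909507-138909756, minus strand for Bnip3, chr11:54100674-54100923, plus strand for P4ha2 and chr7:110627407-110627656, plus strand for Adm.
Slc16a3: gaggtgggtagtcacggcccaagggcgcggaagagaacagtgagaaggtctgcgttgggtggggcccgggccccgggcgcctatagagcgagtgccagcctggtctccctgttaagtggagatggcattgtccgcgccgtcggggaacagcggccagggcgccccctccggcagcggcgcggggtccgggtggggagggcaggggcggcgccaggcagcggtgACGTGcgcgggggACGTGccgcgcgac
Pdk1: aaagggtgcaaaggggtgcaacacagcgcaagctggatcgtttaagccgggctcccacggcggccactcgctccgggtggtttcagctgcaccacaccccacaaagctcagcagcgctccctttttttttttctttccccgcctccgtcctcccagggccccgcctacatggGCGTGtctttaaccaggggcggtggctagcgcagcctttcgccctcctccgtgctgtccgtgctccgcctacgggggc
Car9: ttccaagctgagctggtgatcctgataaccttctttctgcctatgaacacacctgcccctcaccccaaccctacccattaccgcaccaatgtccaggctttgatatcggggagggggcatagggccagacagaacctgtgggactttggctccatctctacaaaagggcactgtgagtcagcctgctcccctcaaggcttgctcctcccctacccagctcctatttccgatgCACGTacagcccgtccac
Bnip3: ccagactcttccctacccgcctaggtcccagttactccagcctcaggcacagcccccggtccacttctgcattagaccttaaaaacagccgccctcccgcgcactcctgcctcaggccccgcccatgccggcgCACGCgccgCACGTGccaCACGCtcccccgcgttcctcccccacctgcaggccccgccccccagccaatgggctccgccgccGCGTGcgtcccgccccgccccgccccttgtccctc
P4ha2: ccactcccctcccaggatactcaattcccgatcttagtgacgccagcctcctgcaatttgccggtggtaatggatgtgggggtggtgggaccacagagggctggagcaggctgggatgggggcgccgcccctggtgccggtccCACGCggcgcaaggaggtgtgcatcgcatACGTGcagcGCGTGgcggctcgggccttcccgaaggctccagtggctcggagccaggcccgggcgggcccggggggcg
Adm: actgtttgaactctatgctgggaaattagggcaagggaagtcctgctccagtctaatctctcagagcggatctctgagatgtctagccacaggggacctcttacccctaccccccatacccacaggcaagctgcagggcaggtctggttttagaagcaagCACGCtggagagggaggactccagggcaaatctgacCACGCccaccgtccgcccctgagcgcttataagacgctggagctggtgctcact

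RefSeq promoters were matched for 30 of the 32 genes, with 44 promoters among them, and Epas1 and Ndrg1 were not matched. At least 1 of the letters ACGTG or GCGTG occurred, on either strand, in 35 of the 44 promoters (79.5%), against 38.6% of all 32851 mouse promoters of the same length. At least 2 occurrences, which may overlap as in the CACGTG of Bnip3, were found in 52.3% of the members' promoters and in 16.7% of all promoters. Promoters of the same gene were counted separately even where their windows overlapped and shared the same letters, as in Aldoa, Eno1 and Pfkm. Pdk1 had a further window, not shown, that held no match. The members' promoters were also richer in G and C, with a median of 62.2% against 52.4%, and the motif letters are themselves rich in G and C. Gpi1 and Tpi1 had none in any of their windows, and Adm had 2, like Slc16a3. A match is a string of letters in this window and not a measured binding site.

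The libraries held between 3491888 and 8175380 counts (median 5149589), and a level of 3 counts, the smallest treated as detected, lay between 0.367 and 0.859 CPM. CPM are counts scaled to a library total of 1000000. The libraries are 3′ tags, about 1 tag per transcript, so CPM were not divided by gene length. Differences were tested with edgeR's quasi-likelihood F test after TMM normalization, with Benjamini-Hochberg adjustment over every gene tested, and every adjusted p below is from that test. A gene passed in tumors below an adjusted p of 0.05, and in the 3 other tissues below 0.10. A minimum fold change, which the study required besides, was not applied, and the counts with a fold change over 2 are given after the spleens. Markers of other cell types were summed over lists of 5 to 10 genes, all in the table. Alveolar markers reached 3737 to 26752 CPM in lungs and at most 307 CPM in any other tissue, so they set the lungs apart. B cell markers were highest in control and 67NR spleens at 801 to 949 CPM. They were 336 to 436 CPM in 4T07 spleens, 224 to 365 CPM in 4T1 spleens and 321 to 431 CPM in 4T07 lungs. These ranges overlapped, so B cell markers did not set those groups apart. Epithelial markers were only 20.9 to 38.0 CPM in the 67NR tumors. The 32 genes together took 0.233% to 0.255% of the counts of 67NR tumors, 0.543% to 0.661% of 4T07 tumors and 0.522% to 0.600% of 4T1 tumors.

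The first question was whether the primary tumors of the 3 lines differed in these genes. Most of the 32 genes were higher in both invasive lines than in 67NR tumors, with the largest rises for the lactate exporter Slc16a3 and the pyruvate dehydrogenase kinase Pdk1, while the peptide hormone gene Adm was lower. In 4T07 tumors 24 of the 32 genes were higher and 2 lower than in 67NR tumors, where 22.9% of all 20508 genes tested were higher and 18.5% lower (41.4% in either direction). In 4T1 tumors 23 were higher and 2 lower, where 16.7% of all genes were higher and 14.8% lower (31.5% in either direction). The median log2 fold change of the 32 genes was 1.37 in 4T07 and 1.24 in 4T1 tumors, beside 0.16 and 0.086 over all genes tested. Both comparisons use the same 67NR tumors, so they are not independent of each other.

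**Figure D1:**
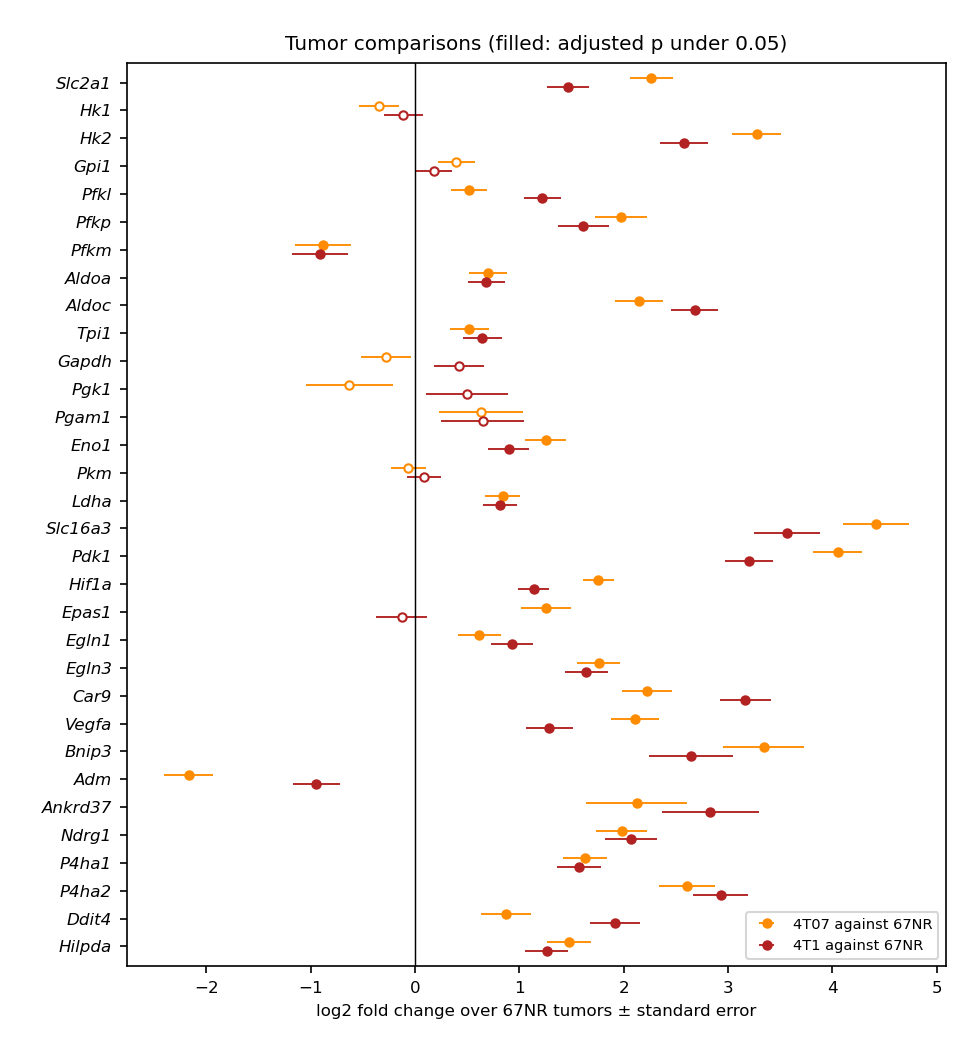
Log2 fold change of each of the 32 genes in 4T07 and in 4T1 tumors over the same 67NR tumors, with the standard error as a bar. Filled points passed at an adjusted p under 0.05. Slc16a3 lies farthest to the right in both comparisons, at 4.42 and 3.56, and Adm farthest to the left, at -2.17 and -0.95.

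The glucose transporter gene Slc2a1 and the hexokinase gene Hk2 were higher in the invasive lines. Slc2a1, the main glucose transporter induced by HIF, measured 41.1, 44.5 and 42.9 CPM in the 67NR tumors, 187, 311 and 236 CPM in the 4T07 tumors and 122, 127 and 158 CPM in the 4T1 tumors. No library of 1 line overlapped another, and the log2 fold change over 67NR was 2.26 ± 0.20 (SE, adjusted p = 7.14e-07) in 4T07 and 1.46 ± 0.20 (SE, adjusted p = 4.69e-05) in 4T1. Hk2 measured 65.8, 68.0 and 70.6 CPM in 67NR tumors, 560.1, 892 and 892 CPM in 4T07 tumors and 372, 433 and 594 CPM in 4T1 tumors. Hk2 encodes the inducible hexokinase that traps glucose in the cell, and every tumor of the invasive lines was above every 67NR tumor while the 4T07 and 4T1 ranges overlapped, at 3.27 ± 0.24 (SE, adjusted p = 9.1e-08) and 2.58 ± 0.23 (SE, adjusted p = 6.74e-07) over 67NR on the log2 scale. Hk1, the housekeeping hexokinase, measured 123, 74.7 and 68.6 CPM in 67NR, 79.7, 83.1 and 84.9 CPM in 4T07 and 100.0, 92.9 and 87.6 CPM in 4T1 tumors. Its 67NR range spanned both other lines, with log2 fold changes of -0.34 and -0.11 that did not pass.

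The rises among the 14 glycolytic enzymes were largest for Hk2, Aldoc and Pfkp. In each comparison with 67NR, 7 of the 14 rose and 1 fell, with a median log2 fold change of 0.52 in 4T07 and 0.65 in 4T1 tumors. The brain-type aldolase Aldoc measured 6.72, 10.4 and 6.49 CPM in 67NR tumors, 34.9, 44.6 and 44.9 CPM in 4T07 tumors and 56.1, 61.1 and 57.2 CPM in 4T1 tumors. It rose by 2.15 ± 0.23 and 2.68 ± 0.23 (SE) on the log2 scale (adjusted p = 3.33e-06 and 3.64e-07). The platelet-type phosphofructokinase Pfkp measured 30.4, 12.3 and 16.1 CPM in 67NR, 75.3, 93.1 and 104 CPM in 4T07 and 69.3, 68.5 and 67.6 CPM in 4T1 tumors. Pfkp rose by 1.97 ± 0.25 and 1.61 ± 0.25 (adjusted p = 1.87e-05 and 0.000136). Every 4T07 and 4T1 tumor was above every 67NR tumor for both genes. The liver-type Pfkl, at 35.7, 36.1 and 27.7 CPM in 67NR, 52.4, 55.5 and 61.5 CPM in 4T07 and 84.3, 82.8 and 99.1 CPM in 4T1 tumors, was highest in 4T1, at 1.22 ± 0.18 (SE, adjusted p = 7.47e-05) over 67NR and 0.70 ± 0.17 (SE, adjusted p = 0.0113) over 4T07. The muscle-type Pfkm was the enzyme that fell, at -0.88 ± 0.27 (SE, adjusted p = 0.0161) in 4T07 and -0.91 ± 0.27 (SE, adjusted p = 0.0173) in 4T1. Its levels were 29.0, 16.2 and 21.5 CPM in the 67NR tumors, where the summed muscle markers were 21.2, 5.32 and 351 CPM in the same order. Those sums were 13.1 to 19.8 CPM in 4T07 and 30.7 to 452 CPM in 4T1 tumors, and their part in the fall of Pfkm was not tested. Without the 67NR tumor with the most Pfkm (replicate 19) neither fall of Pfkm passed, and without 4T1 replicate 44 the fall in 4T1 did not pass (highest adjusted p 0.0609 in 4T07 and 0.0837 in 4T1).

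Aldoa, the main aldolase, and Tpi1, the triosephosphate isomerase, rose by 0.70 and 0.52 in 4T07 and by 0.68 and 0.65 in 4T1 tumors on the log2 scale. Their smaller calls depended on single libraries: in 4T07 the rise of Tpi1 was lost on leaving out any 1 of 7 tumors (all but 67NR replicate 20 and 4T1 replicate 44) and the rise of Pfkl any 1 of 5 (67NR replicate 21, 4T07 replicates 31, 32 and 33, and 4T1 replicate 43), with highest adjusted p of 0.106 and 0.158. In 4T1 the rise of Aldoa was lost without 67NR replicate 21 or 4T1 replicate 45 and that of Tpi1 without 4T1 replicate 45 (highest adjusted p 0.0583 and 0.101). Replicates 21 and 45 had the highest summed muscle markers of their lines, 351 and 452 CPM, and 276 and 675 CPM of Aldoa. The part of muscle in the Aldoa values was not tested. Hk1, Gpi1, Gapdh, Pgk1, Pgam1 and Pkm did not pass in either comparison with 67NR, with log2 fold changes from -0.63 to 0.65. Gapdh, Pgk1 and Pgam1 have near-identical processed copies in the genome. The copies in the table held few counts, with the most counted copy at 0.975% of the counts of Gapdh, 1.39% of Pgk1 and 0.412% of Pgam1. How tags that match several places were counted is not given in the sources used here, so the values of these 3 genes are uncertain. Aldoa, Tpi1 and Ldha also have named copies in the table, so the same doubt applies to them. The most counted copy held 1.625% of the counts of Aldoa and 0.0127% of Tpi1, and the copies of Ldha held 0 counts. Eno1 rose by 1.25 and 0.90, but its near-identical copy Eno1b held 160.5% of the counts of Eno1 over all libraries, and with the counts of both added the log2 fold changes were 0.23 (adjusted p = 0.428) and 0.49 (adjusted p = 0.116).

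All 3 genes of pyruvate and lactate rose, and Slc16a3 and Pdk1 had the largest log2 fold changes of the 32 genes in both comparisons. Slc16a3 encodes MCT4, which exports lactate from glycolytic cells. It measured 1.88, 3.36 and 3.39 CPM in 67NR tumors, 74.3, 62.8 and 83.3 CPM in 4T07 tumors and 33.5, 30.1 and 54.0 CPM in 4T1 tumors. On the log2 scale it exceeded 67NR by 4.42 ± 0.31 (SE, adjusted p = 8.46e-08) and 3.56 ± 0.32 (SE, adjusted p = 6.02e-07). Pdk1, whose kinase blocks the entry of pyruvate into the citric acid cycle, measured 8.33, 5.87 and 9.60 CPM in 67NR, 119, 195 and 155 CPM in 4T07 and 82.1, 86.1 and 83.5 CPM in 4T1 tumors, with log2 fold changes of 4.05 ± 0.23 (SE, adjusted p = 1.58e-08) and 3.20 ± 0.23 (SE, adjusted p = 6.44e-08). For both genes the 67NR tumors were lowest, the 4T1 tumors intermediate and the 4T07 tumors highest, with no overlap between lines. Ldha, which reduces pyruvate to lactate, measured 503, 606 and 571 CPM in 67NR, 1098, 1222 and 1261 CPM in 4T07 and 1127, 1096 and 1172 CPM in 4T1 tumors. It rose by 0.84 ± 0.17 (SE, adjusted p = 0.000901) and 0.81 ± 0.17 (SE, adjusted p = 0.0015) on the log2 scale, and the ranges of the 4T07 and 4T1 tumors overlapped.

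**Figure D2:**
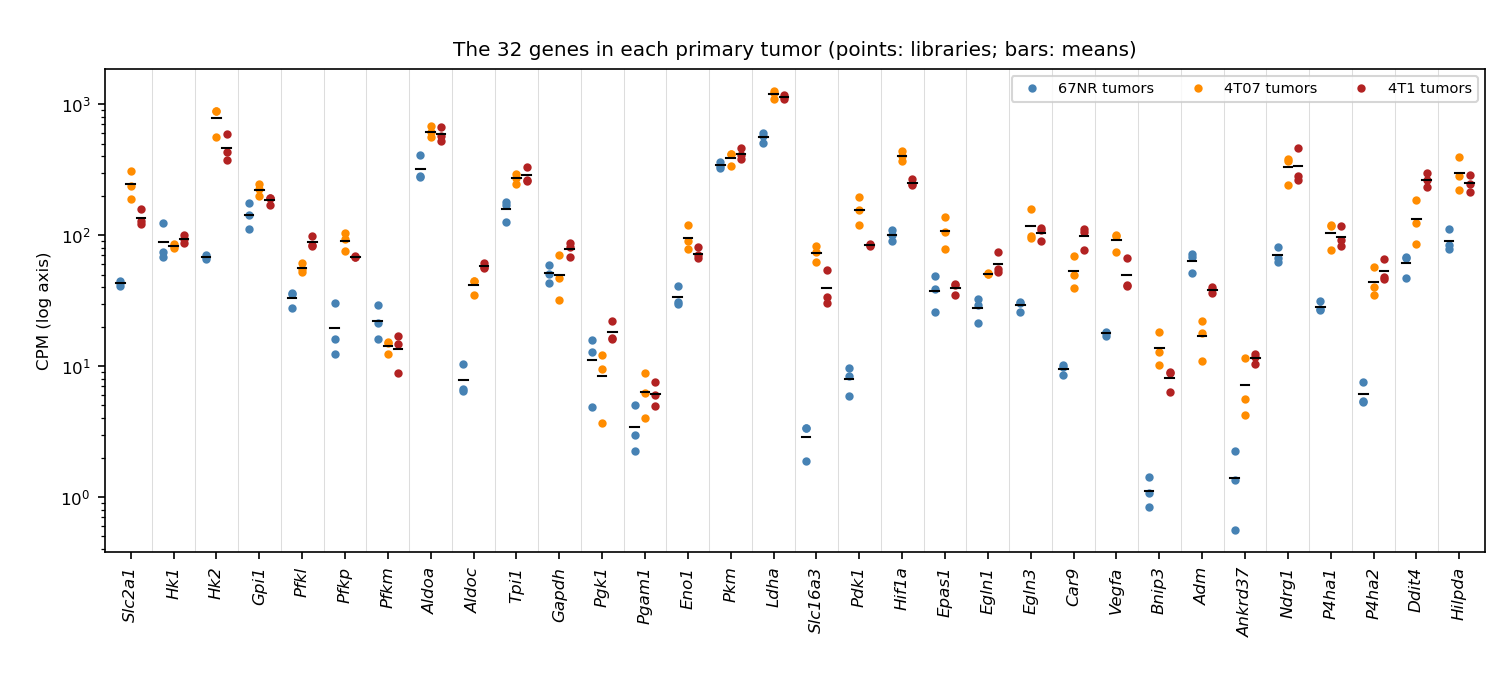
CPM on a log axis of the 32 genes in each of the 9 primary tumors, with a point for each library and a bar for the mean of 3. For Slc16a3 the 67NR tumors lie between 1.88 and 3.39 CPM and the 4T07 tumors between 62.8 and 83.3 CPM, while Hk1, Gpi1 and Pkm lie close together in all lines.

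All 4 genes of the oxygen-sensing machinery were higher in 4T07 than in 67NR tumors, and 3 of the 4 were higher in 4T1. Hif1a measured 109, 89.8 and 101 CPM in 67NR tumors, 439, 366 and 399 CPM in 4T07 tumors and 266, 247 and 243 CPM in 4T1 tumors. The lines did not overlap, at 1.76 ± 0.15 (SE, adjusted p = 5.06e-07) and 1.14 ± 0.15 (SE, adjusted p = 3.48e-05) over 67NR. Epas1, the HIF-2 alpha subunit best known in endothelium, measured 38.7, 48.4 and 25.7 CPM in 67NR, 137, 78.2 and 106 CPM in 4T07 and 34.9, 42.0 and 41.9 CPM in 4T1 tumors. Every 4T07 tumor was above the tumors of both other lines, with 1.26 ± 0.24 (SE, adjusted p = 0.000692) over 67NR, whereas 4T1 tumors lay within the 67NR range at -0.13 ± 0.24 (SE, adjusted p = 0.729). The summed endothelial markers were 327 to 516 CPM in 67NR, 288 to 468 CPM in 4T07 and 320 to 336 CPM in 4T1 tumors, and the 3 ranges overlapped. Egln3 measured 30.9, 30.5 and 25.7 CPM in 67NR tumors, 94.7, 157 and 98.2 CPM in 4T07 tumors and 109, 112 and 90.4 CPM in 4T1 tumors. Egln3, itself a HIF target, rose by 1.76 and 1.64 (adjusted p = 9.59e-06 and 2.24e-05) with overlap only between 4T07 and 4T1. Egln1, the main oxygen sensor, measured 21.5, 32.5 and 29.1 CPM in 67NR, 51.2, 50.1 and 50.2 CPM in 4T07 and 52.7, 55.3 and 74.0 CPM in 4T1 tumors, and rose by 0.61 ± 0.21 (SE, adjusted p = 0.0263) and 0.93 ± 0.21 (SE, adjusted p = 0.00272). The call in 4T07 was lost on leaving out 67NR replicate 19 or 21, any 4T07 tumor, or 4T1 replicate 43 (highest adjusted p 0.0822).

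Of the 10 other HIF targets, 9 rose and 1 fell in both invasive lines relative to 67NR, with median log2 fold changes of 2.04 in 4T07 and 1.99 in 4T1 tumors. Car9, a membrane carbonic anhydrase that buffers acid outside hypoxic cells, measured 8.60, 9.79 and 10.2 CPM in 67NR, 49.6, 68.9 and 39.8 CPM in 4T07 and 77.2, 106 and 112 CPM in 4T1 tumors, at 2.22 ± 0.24 (SE, adjusted p = 4.18e-06) and 3.17 ± 0.24 (SE, adjusted p = 1.31e-07) over 67NR. P4ha2, a prolyl hydroxylase of collagen, measured 7.53, 5.32 and 5.36 CPM, 35.1, 40.3 and 57.0 CPM and 47.9, 45.9 and 65.6 CPM in the same order, at 2.61 ± 0.26 and 2.93 ± 0.26 (adjusted p = 2.24e-06 and 7.21e-07). Every tumor of the invasive lines exceeded every 67NR tumor for Car9 and P4ha2. Bnip3, a mitophagy receptor, measured 1.08, 0.839 and 1.41 CPM in 67NR tumors, at most 5 counts in a library, 10.2, 12.7 and 18.1 CPM in 4T07 and 8.78, 6.35 and 9.07 CPM in 4T1 tumors, at 3.34 ± 0.39 (SE, adjusted p = 8.9e-06) and 2.64 ± 0.40 (SE, adjusted p = 0.000127). Ankrd37, an ankyrin repeat gene induced by HIF-1, was also rare in 67NR. Ankrd37 measured 1.34, 0.560 and 2.26 CPM in 67NR tumors, 4.21, 11.6 and 5.64 CPM in 4T07 tumors and 11.7, 12.3 and 10.4 CPM in 4T1 tumors, at 2.12 ± 0.48 (SE, adjusted p = 0.00261) and 2.83 ± 0.47 (SE, adjusted p = 0.000263). For both genes every tumor of the invasive lines was above every 67NR tumor.

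Vegfa, the main vessel growth factor, measured 18.0, 17.1 and 18.3 CPM in 67NR, 74.3, 98.9 and 101 CPM in 4T07 and 41.7, 40.8 and 67.1 CPM in 4T1 tumors, and rose by 2.11 ± 0.23 (SE, adjusted p = 4.12e-06) and 1.29 ± 0.23 (SE, adjusted p = 0.000473). Ndrg1, P4ha1 and Hilpda rose by 1.98, 1.63 and 1.47 in 4T07 and by 2.07, 1.57 and 1.26 in 4T1 tumors. Ddit4, which restrains mTORC1 under stress, measured 68.5, 66.3 and 47.4 CPM in 67NR, 86.1, 185 and 125 CPM in 4T07 and 261, 299 and 231 CPM in 4T1 tumors. It was highest in 4T1 without overlap, at 1.92 ± 0.24 (SE, adjusted p = 2.24e-05) over 67NR, and its smaller rise in 4T07, 0.87 ± 0.24 (SE, adjusted p = 0.00875), was lost without 67NR replicate 21 or 4T07 replicate 32 (highest adjusted p 0.0889). Adm, the vasodilator adrenomedullin and a textbook HIF target, went against the other 9. It measured 68.3, 71.9 and 51.7 CPM in 67NR, 10.8, 22.0 and 17.8 CPM in 4T07 and 39.9, 38.5 and 35.8 CPM in 4T1 tumors, highest in 67NR and lowest in 4T07 with no overlap, at -2.17 ± 0.24 (SE, adjusted p = 4.6e-06) and -0.95 ± 0.22 (SE, adjusted p = 0.00432) over 67NR.

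The invasive lines differed from each other in fewer genes. Relative to 4T07 tumors, 4T1 tumors were higher in 4 genes and lower in 7 of the 32, where 7.69% of all genes were higher and 6.98% lower (14.7% in either direction). Adm, Ddit4, Car9 and Pfkl were higher in 4T1, at 1.22 ± 0.23, 1.05 ± 0.23, 0.94 ± 0.21 and 0.70 ± 0.17 (SE) on the log2 scale (adjusted p = 0.00252, 0.00694, 0.00641 and 0.0113). Epas1 and Pdk1 were lower in 4T1, at -1.39 ± 0.24 (SE, adjusted p = 0.00104) and -0.85 ± 0.19 (SE, adjusted p = 0.007), and these 6 calls held on leaving out each tumor in turn. Slc16a3, Vegfa, Slc2a1, Hk2 and Hif1a were lower in 4T1, at -0.85, -0.82, -0.80, -0.70 and -0.62 on the log2 scale (adjusted p from 0.0102 to 0.0402), and each of these 5 calls was lost without at least 2 of the 9 tumors, with highest adjusted p from 0.0561 to 0.177. Without 4T1 replicate 43 the count was 7 and without 4T1 replicate 44 it was 6. Aldoc was higher in every 4T1 than in every 4T07 tumor but did not pass, at 0.54 ± 0.19 (SE, adjusted p = 0.0769).

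Markers of other cell types moved between the tumors as well. The summed epithelial markers were 20.9 to 38.0 CPM in 67NR, 191 to 262 CPM in 4T07 and 1209.8 to 1327 CPM in 4T1 tumors, the fibroblast markers 913 to 1130.3, 4812 to 7182 and 5806 to 9024 CPM, the neutrophil markers 41.8 to 392, 1056 to 4694 and 639 to 1042 CPM, and the erythroid markers 1432 to 1684, 4758 to 22659 and 1979.9 to 2432 CPM. The part of these cells in the differences of the 32 genes was not tested. Markers of dividing cells went the other way, at 1837 to 1912 CPM in 67NR, 1246 to 1607 CPM in 4T07 and 1538 to 1788 CPM in 4T1 tumors.

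In the scaffolds the question was whether the engineered site changed with the tumor line. Members passed only in comparisons that involved the 4T07 scaffolds. Relative to control scaffolds, 4 of the 32 genes were higher and 6 lower in 4T07 scaffolds, where 9.22% of all genes were higher and 8.5% lower (17.7% in either direction). No member passed in 67NR against control scaffolds, 4T1 against control scaffolds or 4T1 against 67NR scaffolds, where edgeR called 0%, 0.0226% and 0.0226% of all genes. At an unadjusted p under 0.05 there were 1, 8 and 5 of the 32 in these 3 comparisons, and DESeq2 called 0, 1 and 1. The share of all genes at that unadjusted threshold is not given, so these counts are not read as particular to the members. The DESeq2 calls over all genes are given with the processing below. In the 4T1 scaffolds the log2 fold changes over control ran from -1.08 (Pgk1) to 0.85 (Slc16a3).

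The 4T07 scaffolds had more of the exporter Slc16a3 and of Egln3, and less of several enzymes. Slc16a3 measured 23.1, 54.5 and 17.8 CPM in control scaffolds, 41.0, 39.8 and 49.5 CPM in 67NR scaffolds, 50.0, 83.1 and 113 CPM in 4T07 scaffolds and 43.8, 99.8 and 44.9 CPM in 4T1 scaffolds. The control and 4T07 ranges overlapped at 1 control library, and the log2 fold change of 4T07 over control was 1.23 ± 0.38 (SE, adjusted p = 0.0437). Egln3 measured 1.89, 2.53 and 2.52 CPM in control scaffolds, 2.96, 4.33 and 3.11 CPM in 67NR scaffolds, 4.77, 6.29 and 5.28 CPM in 4T07 scaffolds and 4.08, 4.85 and 3.77 CPM in 4T1 scaffolds. Every 4T07 scaffold was above every control scaffold, at 1.07 ± 0.29 (SE, adjusted p = 0.0221). Ndrg1, a gene induced by hypoxia and other stress, measured 83.9, 89.6 and 96.5 CPM in control scaffolds, 92.9, 103 and 98.8 CPM in 67NR scaffolds, 115, 144 and 142 CPM in 4T07 scaffolds and 108, 134 and 109 CPM in 4T1 scaffolds. Here too 4T07 lay above control without overlap, at 0.43 ± 0.15 (SE, adjusted p = 0.0668). The rise of Egln3 held without each library in turn. That of Slc16a3 was lost without control replicate 1 or 3 or 4T07 replicate 23 or 24 (highest adjusted p 0.180), and those of Ndrg1 and Eno1 without any 1 of 6 and 4 libraries, 4T07 replicates 23 and 24 among them (highest adjusted p 0.220 and 0.225). With Eno1b added, the rise of Eno1 did not pass in scaffolds, at 0.23 over control (adjusted p = 0.564).

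The 6 genes that fell in 4T07 scaffolds were 4 enzymes and the targets Hilpda and Adm. Hilpda, which binds lipid droplets in hypoxic cells, measured 244, 234 and 190.0 CPM in control scaffolds, 221, 159 and 167 CPM in 67NR scaffolds, 125, 132 and 133 CPM in 4T07 scaffolds and 201, 167 and 213 CPM in 4T1 scaffolds. The 4T07 scaffolds were lower than all others, at -0.92 ± 0.19 (SE, adjusted p = 0.00464) relative to control. Aldoc measured 24.1, 25.0 and 32.4 CPM in control scaffolds, 19.6, 21.8 and 24.2 CPM in 67NR scaffolds, 18.8, 18.1 and 17.1 CPM in 4T07 scaffolds and 23.2, 19.6 and 19.0 CPM in 4T1 scaffolds. All 4T07 libraries were below all control libraries, at -0.73 ± 0.17 (SE, adjusted p = 0.0101). Tpi1 measured 121, 143 and 141 CPM in control scaffolds, 144, 158 and 141 CPM in 67NR scaffolds, 99.6, 103 and 81.2 CPM in 4T07 scaffolds and 91.8, 102 and 123 CPM in 4T1 scaffolds. Again 4T07 lay below control without overlap, at -0.65 ± 0.16 (SE, adjusted p = 0.0155). Adm measured 16.4, 22.5 and 20.3 CPM in control scaffolds, 17.4, 18.6 and 14.7 CPM in 67NR scaffolds, 12.6, 10.0 and 10.9 CPM in 4T07 scaffolds and 32.8, 11.0 and 21.9 CPM in 4T1 scaffolds. The 4T07 scaffolds were below the control scaffolds, at -0.96 ± 0.30 (SE, adjusted p = 0.0445), but the call was lost without control replicate 2 or 4T07 replicate 23 or 24 (highest adjusted p 0.132). Gapdh measured 29.6, 42.4 and 38.6 CPM in control scaffolds, 42.3, 36.1 and 35.4 CPM in 67NR scaffolds, 17.9, 14.5 and 7.77 CPM in 4T07 scaffolds and 18.9, 18.5 and 37.2 CPM in 4T1 scaffolds. Pgk1, which makes the first ATP of the chain, measured 8.39, 16.2 and 16.1 CPM in control scaffolds, 12.9, 12.8 and 14.7 CPM in 67NR scaffolds, 6.12, 5.50 and 2.02 CPM in 4T07 scaffolds and 3.27, 5.78 and 11.5 CPM in 4T1 scaffolds. For both genes the 4T07 scaffolds were below every control scaffold, at -1.60 ± 0.30 (SE, adjusted p = 0.00317) for Gapdh and -1.71 ± 0.41 (SE, adjusted p = 0.013) for Pgk1, with the doubt about their counting given above.

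Against 67NR scaffolds, 2 of the 32 genes were higher and 5 lower in 4T07 scaffolds, where 7.69% of all genes were higher and 6.99% lower (14.7% in either direction). Gapdh, Pgk1 and Tpi1 were again lower, at -1.57 ± 0.30, -1.63 ± 0.41 and -0.71 ± 0.16, and Car9 and Hilpda were lower at -1.37 ± 0.44 (SE, adjusted p = 0.0646) and -0.56 ± 0.18 (SE, adjusted p = 0.0706). Car9 measured 2.31, 2.53 and 1.73 CPM in control scaffolds, 2.03, 2.89 and 3.44 CPM in 67NR scaffolds, 0.979, 1.18 and 1.24 CPM in 4T07 scaffolds and 3.43, 5.41 and 1.44 CPM in 4T1 scaffolds. The 4T07 scaffolds held the least, below every other library. Car9 was the single member that passed between 4T1 and 4T07 scaffolds, at 1.60 ± 0.44 (SE, adjusted p = 0.0988), where 2.14% of all genes differed. That call rested on few counts and was lost on leaving out any 1 of 10 of the 12 scaffolds (all but control replicate 1 and 4T1 replicate 36), and the calls of Car9, Hilpda, Aldoa and Eno1 against 67NR were each lost without 4T07 replicate 23 or 24 and others (highest adjusted p 0.185 to 0.271). The count against control fell to 6 without 4T07 replicate 23 or 24. The count against 67NR was 4 when any 1 of the 67NR scaffolds (replicates 10, 11 and 12) was left out, 3 without 4T07 replicate 23 or 24 and 11 without 4T1 replicate 35, and Car9 gave way to 3 members between 4T1 and 4T07 scaffolds without 4T1 replicate 35. In the 4T07 scaffolds the summed erythroid markers were 3330 to 25642 CPM and the neutrophil markers 2577 to 8573 CPM, against 1976 to 2391 and 759 to 2395 CPM in control scaffolds, and the adipocyte markers 434 to 599 CPM against 847 to 1118 CPM. The skeletal muscle markers were 227 to 571 CPM in 4T07, 29.6 to 293 CPM in 67NR and 23.3 to 427 CPM in control scaffolds. Their part in these differences was not tested.

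In the lungs, the native site of metastasis, the 4T07 mice differed most from control mice. Of the 32 genes 13 were higher and 10 lower in 4T07 than in control lungs, where 25.2% of all genes were higher and 25% lower (50.2% in either direction). In 4T1 lungs 8 were higher and 4 lower than in control lungs, where 7.45% of all genes were higher and 4.34% lower (11.8%). In 67NR lungs 3 were higher and 6 lower, where 6.51% of all genes were higher and 6.25% lower (12.8%). All 3 comparisons use the same control lungs. The exporter Slc16a3 rose in 4T07 and 4T1 lungs. In 4T07 lungs 8 of the 14 enzymes rose and 1 fell, and 2 of the 10 other HIF targets rose and 7 fell. In 4T1 lungs 5 of the 14 enzymes rose (Hk2, Gpi1, Aldoa, Eno1 and Pkm) and 3 fell (Aldoc, Tpi1 and Pgk1), and of the other targets none rose and 1 fell.

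Slc16a3 measured 5.06, 6.49 and 5.99 CPM in control lungs, 8.04, 6.66 and 9.40 CPM in 67NR lungs, 40.2, 38.0 and 40.4 CPM in 4T07 lungs and 48.1, 76.0 and 22.6 CPM in 4T1 lungs. The 4T07 and 4T1 lungs exceeded all control and 67NR lungs, at 2.82 ± 0.31 (SE, adjusted p = 3.23e-07) in 4T07 and 3.07 ± 0.31 (SE, adjusted p = 8.79e-07) in 4T1 relative to control. Slc2a1 measured 13.6, 15.5 and 12.9 CPM in control lungs, 13.0, 15.3 and 17.1 CPM in 67NR lungs, 29.2, 19.2 and 16.3 CPM in 4T07 lungs and 23.3, 37.6 and 25.6 CPM in 4T1 lungs. Its 4T1 libraries were above all control and 67NR libraries, at 1.06 ± 0.21 (SE, adjusted p = 0.00347). The rise of Slc2a1 in 4T07 lungs, 0.68 ± 0.22 (SE, adjusted p = 0.0166), was lost without 4T07 replicate 25 (adjusted p = 0.135). Egln3 measured 1.05, 0.721 and 0.647 CPM in control lungs, 0.575, 3.41 and 4.63 CPM in 67NR lungs, 6.77, 8.67 and 8.46 CPM in 4T07 lungs and 4.35, 5.22 and 2.40 CPM in 4T1 lungs. All 4T07 and 4T1 lungs were above all control lungs, at 3.34 ± 0.50 (SE, adjusted p = 1.43e-05) in 4T07 and 2.30 ± 0.53 (SE, adjusted p = 0.00912) in 4T1. In 67NR lungs 1 library was below the control lungs and the others above them, at 1.76 ± 0.55 (SE, adjusted p = 0.0539), and that call was lost on leaving out any control lung or 67NR replicate 14 or 15 (highest adjusted p 0.304).

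Among the enzymes, Hk1 measured 48.1, 50.0 and 45.6 CPM in control lungs, 53.1, 51.3 and 47.5 CPM in 67NR lungs, 121, 145 and 108 CPM in 4T07 lungs and 60.5, 56.6 and 51.0 CPM in 4T1 lungs. The 4T07 lungs were above all others, at 1.44 ± 0.14 (SE, adjusted p = 5.58e-08) over control, and 4T1 lungs were lower than 4T07 lungs at -1.20 ± 0.14 (SE, adjusted p = 7.34e-07). Gpi1, which converts glucose 6-phosphate to fructose 6-phosphate, measured 72.0, 68.5 and 77.0 CPM in control lungs, 62.4, 83.0 and 72.3 CPM in 67NR lungs, 141, 177 and 138 CPM in 4T07 lungs and 124, 148 and 92.2 CPM in 4T1 lungs. Neither invasive group overlapped with control, at 1.13 ± 0.17 (SE, adjusted p = 1.45e-05) in 4T07 and 0.76 ± 0.17 (SE, adjusted p = 0.00727) in 4T1. Eno1 measured 3.66, 3.79 and 4.86 CPM in control lungs, 8.43, 4.22 and 5.21 CPM in 67NR lungs, 13.8, 11.8 and 11.5 CPM in 4T07 lungs and 11.6, 11.9 and 8.10 CPM in 4T1 lungs. It was higher than in control lungs in every 4T07 and 4T1 lung, at 1.64 ± 0.26 (SE, adjusted p = 2.66e-05) and 1.36 ± 0.26 (SE, adjusted p = 0.00176), and with Eno1b added it still passed at 2.06 and 1.04. Hk2, Pfkl, Pfkm, Aldoa and Pkm rose in 4T07 lungs by 0.73, 0.85, 0.95, 0.48 and 0.90 on the log2 scale. Ldha measured 413, 422 and 379.9 CPM in control lungs, 277, 296 and 298 CPM in 67NR lungs, 542, 474 and 391 CPM in 4T07 lungs and 446, 463 and 409 CPM in 4T1 lungs. It was lower in every 67NR than in every control lung, at -0.59 ± 0.14 (SE, adjusted p = 0.0133), and higher in 4T1 than in 67NR lungs, at 0.72 ± 0.14 (SE, adjusted p = 0.00221). In 4T1 lungs the calls of Hk2, Aldoa, Aldoc, Tpi1, Pgk1, Pkm and Adm against control were each lost on leaving out 1 library, with 4T1 replicate 37 or 38 among these libraries for every gene (highest adjusted p 0.197 to 0.531). The count was 6 without 4T1 replicate 38 and 7 without control replicate 4 or 5 or 4T1 replicate 37.

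Of the 10 genes that fell in 4T07 lungs, 7 were other HIF targets, and the rest were Epas1, Egln1 and Aldoc. Hilpda measured 753, 607 and 613 CPM in control lungs, 377, 495 and 384 CPM in 67NR lungs, 112, 67.9 and 109.8 CPM in 4T07 lungs and 545, 462 and 579 CPM in 4T1 lungs. The 4T07 lungs were below all others, at -2.71 ± 0.20 (SE, adjusted p = 8.61e-10) relative to control, and the 67NR lungs were also below control at -0.76 ± 0.18 (SE, adjusted p = 0.0151). Epas1 measured 1422, 1571 and 1638 CPM in control lungs, 1883, 1784 and 1928 CPM in 67NR lungs, 597, 430.1 and 949.5 CPM in 4T07 lungs and 1586, 1639.5 and 1902 CPM in 4T1 lungs. Every 4T07 lung was below every other lung, at -1.16 ± 0.20 (SE, adjusted p = 7.37e-05). Vegfa measured 178, 187 and 263 CPM in control lungs, 292, 319.7 and 320.3 CPM in 67NR lungs, 103, 75.4 and 124 CPM in 4T07 lungs and 182, 191 and 213 CPM in 4T1 lungs. It was lowest in 4T07 lungs, at -0.99 ± 0.17 (SE, adjusted p = 7.9e-05), and highest in 67NR lungs, at 0.47 ± 0.17 (SE, adjusted p = 0.0945), a call lost on leaving out any 1 of 6 libraries (control replicates 4 and 5, 67NR replicates 14 and 15, 4T1 replicates 37 and 38). Egln1 measured 30.3, 39.0 and 31.4 CPM in control lungs, 37.9, 39.3 and 42.5 CPM in 67NR lungs, 16.9, 20.4 and 26.5 CPM in 4T07 lungs and 26.6, 23.0 and 31.6 CPM in 4T1 lungs. The 4T07 lungs were below the control lungs, at -0.59 ± 0.18 (SE, adjusted p = 0.0105). Adm measured 17.6, 19.8 and 18.5 CPM in control lungs, 9.19, 11.7 and 10.4 CPM in 67NR lungs, 7.62, 4.34 and 3.04 CPM in 4T07 lungs and 13.5, 12.6 and 7.65 CPM in 4T1 lungs. All 3 tumor-bearing groups were below control without overlap, at -0.93, -1.83 and -0.71 in 67NR, 4T07 and 4T1 lungs (adjusted p = 0.0217, 1.36e-05 and 0.0748). Aldoc measured 20.2, 17.7 and 14.4 CPM in control lungs, 10.5, 13.2 and 7.96 CPM in 67NR lungs, 5.08, 3.92 and 3.90 CPM in 4T07 lungs and 10.1, 9.89 and 12.6 CPM in 4T1 lungs. It was likewise below control in all 3 groups without overlap, at -0.83, -1.95 and -0.67, and its call in 67NR was lost without control replicate 4 or 67NR replicate 15 (highest adjusted p 0.142).

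P4ha1, Bnip3, Ankrd37 and P4ha2 fell in 4T07 lungs by 0.99, 1.67, 1.28 and 0.69 on the log2 scale. The calls of Ankrd37 and P4ha2 were lost without control replicate 5 or 4T07 replicate 26, and that of P4ha2 also without control replicate 6 or 4T07 replicate 25 (highest adjusted p 0.190 and 0.354). Bnip3 measured 3.49, 4.33 and 2.27 CPM in control lungs, 2.30, 3.25 and 3.91 CPM in 67NR lungs, 0.423, 1.03 and 1.52 CPM in 4T07 lungs and 1.61, 2.40 and 2.55 CPM in 4T1 lungs. Ankrd37 measured 2.79, 4.15 and 1.29 CPM in control lungs, 0.958, 1.79 and 1.59 CPM in 67NR lungs, 1.27, 0.826 and 1.08 CPM in 4T07 lungs and 4.02, 3.11 and 2.70 CPM in 4T1 lungs. All 4T07 libraries were below the control libraries for both genes, and at these levels a library holds only a few tags. Ndrg1 and Car9 were the targets that rose, by 0.78 and 1.95. Car9 measured 0.349, 0.721 and 0.162 CPM in control lungs, 0.958, 1.30 and 0.868 CPM in 67NR lungs, 1.91, 2.06 and 0.651 CPM in 4T07 lungs and 0.483, 0.706 and 0.150 CPM in 4T1 lungs. No lung held more than 10 counts of Car9 and 1 of the 4T07 lungs lay within the control range.

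Pgk1 measured 4.01, 6.85 and 1.94 CPM in control lungs, 1.92, 2.44 and 1.30 CPM in 67NR lungs, 2.75, 3.51 and 3.47 CPM in 4T07 lungs and 1.13, 1.98 and 1.20 CPM in 4T1 lungs. Gapdh measured 9.94, 13.7 and 6.31 CPM in control lungs, 3.06, 8.12 and 6.22 CPM in 67NR lungs, 11.0, 16.1 and 11.9 CPM in 4T07 lungs and 8.53, 7.48 and 6.90 CPM in 4T1 lungs. Both were lower in 67NR than in control lungs, at -1.27 and -0.86, with calls lost without control replicate 4 or 5 or 67NR replicate 13 or 15, and for Gapdh also without 4 other lungs (highest adjusted p 0.367 and 0.396). Of the 9 members called in 67NR against control lungs, the count was 3 without control replicate 4 or without 67NR replicate 15, and 4 without control replicate 5. Between 4T1 and 67NR lungs 7 members were higher and 2 lower (7.24% and 4.71% of all genes, 12% in either direction), and 4 passed without 67NR replicate 15. Pfkm measured 9.41, 8.30 and 8.90 CPM in control lungs, 11.3, 15.4 and 18.8 CPM in 67NR lungs, 18.0, 17.5 and 13.9 CPM in 4T07 lungs and 8.37, 6.64 and 7.80 CPM in 4T1 lungs. It was lower in every 4T1 than in every 67NR lung, at -0.89 ± 0.21 (SE, adjusted p = 0.0115), a call lost without 67NR replicate 15 (adjusted p = 0.102). The summed skeletal muscle markers were 8.04 to 160 CPM in 67NR and 11.0 to 54.1 CPM in 4T1 lungs. Heart muscle markers were 93.7 to 433 and 73.8 to 121 CPM in the same order. The part of muscle in the Pfkm values was not tested. Between 4T07 and 67NR lungs 13 members were higher and 9 lower (24.6% and 25.8% of all genes, 50.4% together). Between 4T1 and 4T07 lungs 11 were higher and 11 lower (22.8% and 21.4%, 44.2% together), 13 in all without 4T07 replicate 26. Pdk1, at 32.4, 34.9 and 31.0 CPM in 4T07 and 27.7, 25.0 and 28.8 CPM in 4T1 lungs, was lower in 4T1 at -0.32, and Hif1a, at 96.7, 96.4 and 103 CPM in 4T07 and 117, 129 and 133 CPM in 4T1 lungs, was higher in 4T1 at 0.31. Neither gene overlapped between the groups, and both calls were lost on leaving out any 1 of 4 libraries (highest adjusted p 0.215 and 0.187).

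The make-up of the 4T07 lungs differed from the control lungs at the same time. The summed alveolar markers were 3737 to 7355 CPM in 4T07 against 23551 to 26752 CPM in control lungs, the endothelial markers 1308 to 2089 against 3817 to 4259 CPM, the erythroid markers 73120 to 94101 against 17876 to 26328 CPM, and the neutrophil markers 21042 to 24760 against 235 to 308 CPM. The markers of dividing cells were 2029.7 to 2868 CPM in 4T07 against 124 to 169.8 CPM in control lungs, those of B cells 321 to 431 against 89.5 to 117 CPM, of T cells 78.1 to 103 against 49.4 to 53.9 CPM, of macrophages 739 to 1019.5 against 461 to 484 CPM and of fibroblasts 498 to 698 against 1205 to 1405 CPM. In 4T1 lungs the alveolar markers were 17547 to 21941 CPM and the endothelial markers 4159 to 4363 CPM, while the neutrophil markers were 11641 to 27390 CPM and those of dividing cells 196 to 278 CPM. The part of these cells was not tested. Markers of the exocrine pancreas reached 408 to 541 CPM in 4T07 lungs against 11.2 to 17.0 CPM in control lungs, where 1 of the 8 (Cela2a) was at 0. In 4T07 spleens they were 34.6 to 463 CPM, which overlapped the 4T07 lungs. The part of these markers in the 4T07 values was likewise not tested.

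**Figure D3:**
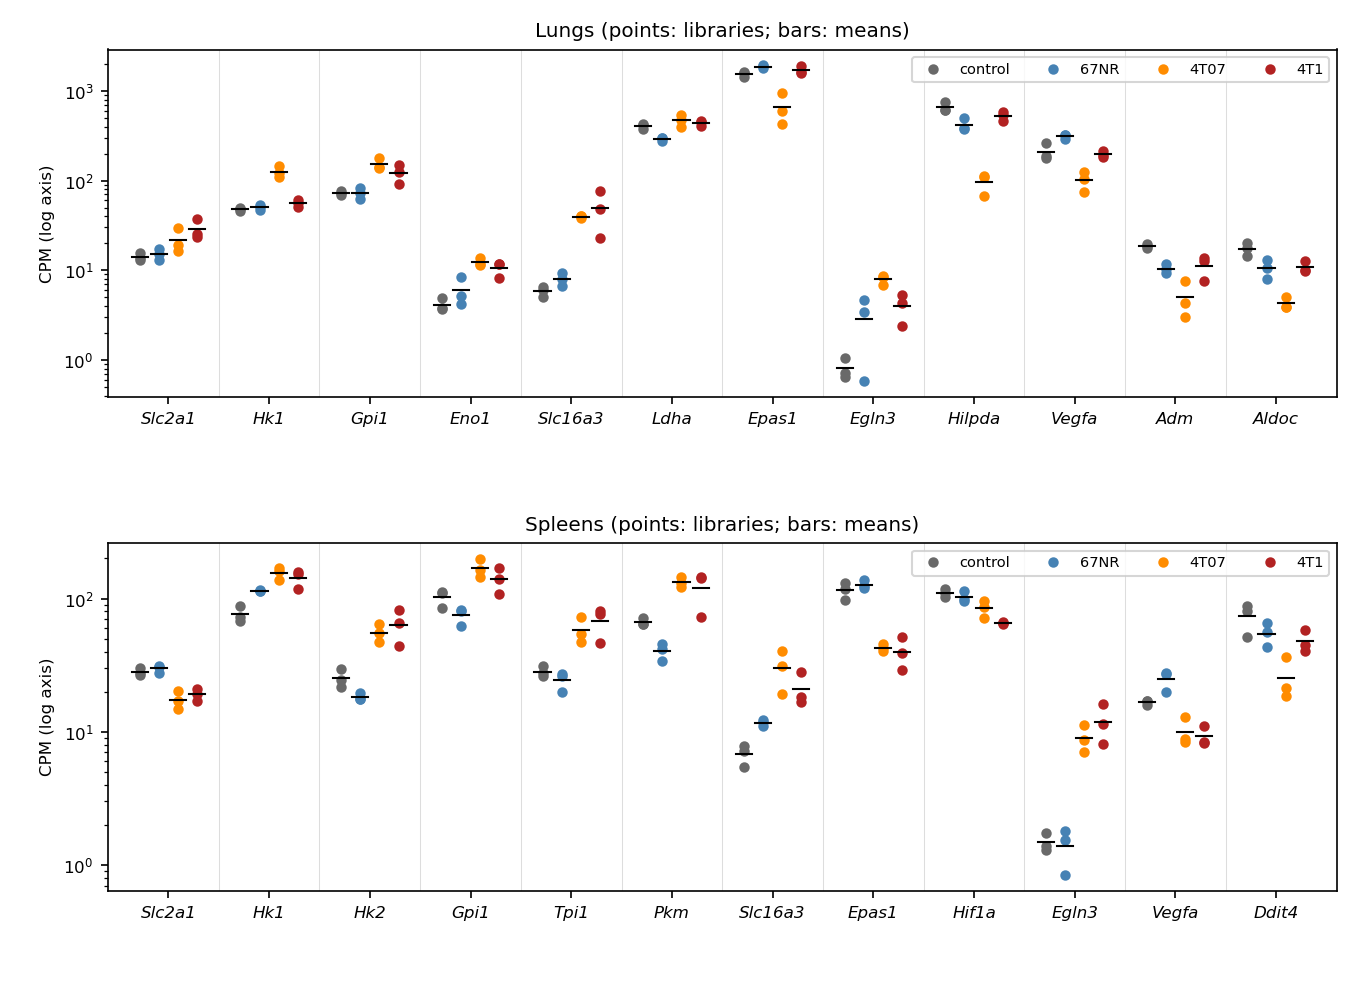
CPM on a log axis of 12 of the genes in each lung library (top) and 12 in each spleen library (bottom), with a point for each library and a bar for the mean of 3. In lungs Slc16a3 lies between 22.6 and 76.0 CPM in 4T1 mice and between 5.06 and 6.49 CPM in control mice, and in spleens Epas1 lies between 29.2 and 51.4 CPM in 4T1 mice and between 98.3 and 131 CPM in control mice.

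In the spleens, which the study took to reflect the blood, the 4T07 and 4T1 mice differed from control mice in 14 and 16 of the 32 genes and from each other in 1. Relative to control spleens 10 members were higher and 4 lower in 4T07, where 16% of all genes were higher and 16.5% lower (32.5%), and 13 were higher and 3 lower in 4T1, where 18% were higher and 17.1% lower (35.1%). These splits depended on scaling: without TMM factors they were 9 higher and 7 lower in 4T07 and 11 higher and 8 lower in 4T1. The glycolytic enzymes rose, 7 of 14 in 4T07 and 8 of 14 in 4T1, and none fell, with median log2 fold changes of 0.81 and 0.90. Of the 10 other HIF targets none rose and 2 fell in 4T07, and 1 rose and 1 fell in 4T1.

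Egln3 measured 1.75, 1.38 and 1.29 CPM in control spleens, 0.838, 1.53 and 1.79 CPM in 67NR spleens, 8.65, 7.08 and 11.2 CPM in 4T07 spleens and 16.1, 8.08 and 11.4 CPM in 4T1 spleens. Every 4T07 and 4T1 spleen was above every control and 67NR spleen, at 2.72 ± 0.36 (SE, adjusted p = 4.94e-05) and 3.23 ± 0.36 (SE, adjusted p = 6.54e-06) over control. Slc16a3 measured 5.44, 7.84 and 7.12 CPM in control spleens, 12.1, 11.8 and 11.0 CPM in 67NR spleens, 19.1, 31.2 and 40.7 CPM in 4T07 spleens and 28.0, 18.4 and 16.7 CPM in 4T1 spleens. Both invasive groups were above all other spleens, at 2.34 ± 0.29 (SE, adjusted p = 2.62e-05) and 1.89 ± 0.29 (SE, adjusted p = 0.00015). Hk2 measured 21.7, 29.5 and 24.4 CPM in control spleens, 19.7, 17.6 and 17.5 CPM in 67NR spleens, 64.2, 54.7 and 47.0 CPM in 4T07 spleens and 82.5, 43.8 and 65.1 CPM in 4T1 spleens. The lowest 4T07 and 4T1 libraries exceeded the highest control library, at 1.30 ± 0.22 (SE, adjusted p = 0.000368) and 1.60 ± 0.22 (SE, adjusted p = 5.15e-05). Hk1 measured 73.0, 68.1 and 87.8 CPM in control spleens, 115, 114 and 115 CPM in 67NR spleens, 137, 160.0 and 170.1 CPM in 4T07 spleens and 152, 159 and 118 CPM in 4T1 spleens. It rose by 1.21 ± 0.17 (SE, adjusted p = 7.31e-05) and 1.16 ± 0.17 (SE, adjusted p = 8.24e-05), again without overlap with control. Tpi1 measured 31.1, 26.1 and 27.6 CPM in control spleens, 27.2, 19.9 and 26.2 CPM in 67NR spleens, 72.5, 54.2 and 47.5 CPM in 4T07 spleens and 77.2, 46.3 and 81.1 CPM in 4T1 spleens. It rose by 1.20 ± 0.23 (SE, adjusted p = 0.000938) and 1.53 ± 0.23 (SE, adjusted p = 0.000103) without overlap. Pkm, the last enzyme of the chain, measured 71.1, 64.4 and 64.3 CPM in control spleens, 34.1, 41.9 and 45.5 CPM in 67NR spleens, 130.3, 146 and 122 CPM in 4T07 spleens and 146, 72.5 and 144 CPM in 4T1 spleens. It was higher than in control spleens in all 4T07 and 4T1 spleens, at 1.17 ± 0.23 (SE, adjusted p = 0.00129) and 1.12 ± 0.23 (SE, adjusted p = 0.0016). Pkm was the single member called in 67NR spleens, at -0.82 ± 0.23 (SE, adjusted p = 0.0665) relative to control, where 6.23% of all genes differed, and that call was lost without control replicate 7 or 8 or any 67NR spleen (highest adjusted p 0.234). Further members passed without some libraries, 5 in all without control replicate 9 and 2 without 4T07 replicate 28 or 30, Pkm among them, and without TMM factors 1 member was higher and 1 lower.

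Gapdh measured 21.4, 9.23 and 3.67 CPM in control spleens, 6.91, 3.32 and 7.40 CPM in 67NR spleens, 34.4, 26.6 and 6.59 CPM in 4T07 spleens and 35.7, 21.3 and 51.2 CPM in 4T1 spleens. Its libraries spread widely within groups, and 4T1 was above control at 1.90 ± 0.53 (SE, adjusted p = 0.0132). Pgk1 measured 4.85, 2.31 and 0.862 CPM in control spleens, 0.628, 0.511 and 0.449 CPM in 67NR spleens, 6.18, 5.35 and 0.859 CPM in 4T07 spleens and 3.60, 1.96 and 13.5 CPM in 4T1 spleens. It passed in 4T1 against 67NR spleens, but no 67NR spleen had more than 3 counts, so no fold is given. Pdk1 measured 34.0, 26.1 and 28.9 CPM in control spleens, 38.1, 33.5 and 36.6 CPM in 67NR spleens, 40.8, 32.1 and 26.1 CPM in 4T07 spleens and 50.8, 41.1 and 47.8 CPM in 4T1 spleens. The 4T1 spleens lay above all control spleens, at 0.91 ± 0.19 (SE, adjusted p = 0.00169). Ldha, at 341, 457 and 343 CPM in 67NR and 488, 377 and 374 CPM in 4T1 spleens, passed against 67NR with overlapping libraries, at 0.47 ± 0.20 (SE, adjusted p = 0.0859), and was lost without 67NR replicate 16 or 18 or 4T1 replicate 40 or 42 (highest adjusted p 0.297). Egln1 measured 15.1, 11.8 and 9.92 CPM in control spleens, 15.7, 14.6 and 13.5 CPM in 67NR spleens, 19.6, 14.7 and 16.6 CPM in 4T07 spleens and 18.2, 12.7 and 17.6 CPM in 4T1 spleens. The invasive groups overlapped with control, at 0.62 ± 0.22 (SE, adjusted p = 0.0489) and 0.65 ± 0.22 (SE, adjusted p = 0.0388), and both calls were lost without control replicate 8 or 9, among others (highest adjusted p 0.162 and 0.172). Car9 measured 1.75, 0.923 and 1.08 CPM in control spleens, 1.05, 1.02 and 0.673 CPM in 67NR spleens, 3.91, 0.863 and 1.15 CPM in 4T07 spleens and 5.03, 3.43 and 2.06 CPM in 4T1 spleens. It was above control in every 4T1 spleen, at 1.69 ± 0.53 (SE, adjusted p = 0.0253), a call lost without 4T1 replicate 40 (adjusted p = 0.132).

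The genes that fell in spleens included Epas1, Vegfa and Ddit4. Epas1 measured 98.3, 117 and 131 CPM in control spleens, 119.6, 137 and 124 CPM in 67NR spleens, 45.5, 42.3 and 40.1 CPM in 4T07 spleens and 39.1, 51.4 and 29.2 CPM in 4T1 spleens. The 4T07 and 4T1 spleens were below all others, at -1.26 ± 0.18 (SE, adjusted p = 0.000101) and -1.28 ± 0.18 (SE, adjusted p = 7.24e-05). Vegfa measured 16.9, 17.1 and 16.0 CPM in control spleens, 27.2, 27.6 and 20.0 CPM in 67NR spleens, 13.0, 8.80 and 8.30 CPM in 4T07 spleens and 8.39, 11.0 and 8.23 CPM in 4T1 spleens. It was below control in both invasive groups without overlap, at -0.56 ± 0.22 (SE, adjusted p = 0.0685) and -0.60 ± 0.22 (SE, adjusted p = 0.0518), calls lost without control replicate 8 among others (highest adjusted p 0.181 and 0.153), and below 67NR in 4T1, at -1.09 ± 0.22 (SE, adjusted p = 0.00141). Ddit4 measured 81.0, 88.1 and 51.5 CPM in control spleens, 43.1, 55.7 and 65.0 CPM in 67NR spleens, 36.2, 18.5 and 21.5 CPM in 4T07 spleens and 44.8, 57.8 and 40.2 CPM in 4T1 spleens. It was below control in every 4T07 spleen, at -1.38 ± 0.25 (SE, adjusted p = 0.00073), and was the single member called between 4T1 and 4T07 spleens, at 1.00 ± 0.25 (SE, adjusted p = 0.0535), where 4.23% of all genes differed. That call was lost without 4T07 replicate 29 or 30 or 4T1 replicate 40 or 41 (highest adjusted p 0.231), and the count was 5 without 4T07 replicate 28, 3 without control replicate 7 and 2 without control replicate 9. Slc2a1 measured 27.8, 30.2 and 26.5 CPM in control spleens, 31.4, 30.7 and 27.6 CPM in 67NR spleens, 20.4, 14.8 and 16.9 CPM in 4T07 spleens and 20.9, 19.3 and 16.9 CPM in 4T1 spleens. It was lower in 4T07 than in control spleens, at -0.53 ± 0.17 (SE, adjusted p = 0.0343), a call lost without control replicate 8 or 4T07 replicate 29 (highest adjusted p 0.121). Hif1a fell in 4T1 spleens by 0.49 (adjusted p = 0.0262).

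Relative to 67NR spleens, 11 members were higher and 4 lower in 4T07 (13.1% and 14% of all genes, 27.2% together) and 15 were higher and 3 lower in 4T1 (18.6% and 17.5%, 36.1% together), the latter 9 and 5 without TMM factors. The summed endothelial markers were 343 to 381 CPM in 4T07 and 294 to 419 CPM in 4T1 against 530 to 688 CPM in control spleens. The neutrophil markers were 20633 to 25993 and 11486 to 28853 against 967 to 1660 CPM, and the erythroid markers 120924 to 158157 and 130433 to 142009 against 85717 to 99368 CPM. B cell markers were 336 to 436 and 224 to 365 against 801 to 949 CPM, T cell markers 106 to 135 and 105 to 134 against 242 to 334 CPM, macrophage markers 1282 to 1417 and 881 to 1241 against 1841 to 2399.7 CPM, and markers of dividing cells 3044 to 4121 and 3266 to 3440.15 against 1532 to 2066 CPM. Exocrine pancreas markers were 260.3 to 3641 CPM in 4T1 against 95.3 to 829 CPM in control spleens. The part of these cells in the spleen values was not tested.

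With a fold change over 2 required as well, most counts were smaller. In tumors 19 members passed in 4T07 and 18 in 4T1 against 67NR and 3 in 4T1 against 4T07 (Adm, Ddit4 and Epas1), where 28.9%, 20.7% and 8.61% of all genes did. In scaffolds 4 members passed in 4T07 against control and 3 against 67NR, where 7.44% and 5.85% of all genes did, and 1 between 4T1 and 4T07 (1% of all genes). In lungs 2, 12 and 5 members passed in 67NR, 4T07 and 4T1 against control, where 4.25%, 29% and 4.61% of all genes did. Against 67NR lungs 13 passed in 4T07 and 3 in 4T1 (29.7% and 5.03%), and 11 passed between 4T1 and 4T07 lungs (23.5%). In spleens 8 and 10 members passed in 4T07 and 4T1 against control (18.6% and 19.9%) and 11 in each against 67NR (14.7% and 20.7%). Neither Pkm in 67NR against control spleens nor Ddit4 between 4T1 and 4T07 spleens exceeded that fold, where 2.26% and 2.33% of all genes passed.

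**Figure D4:**
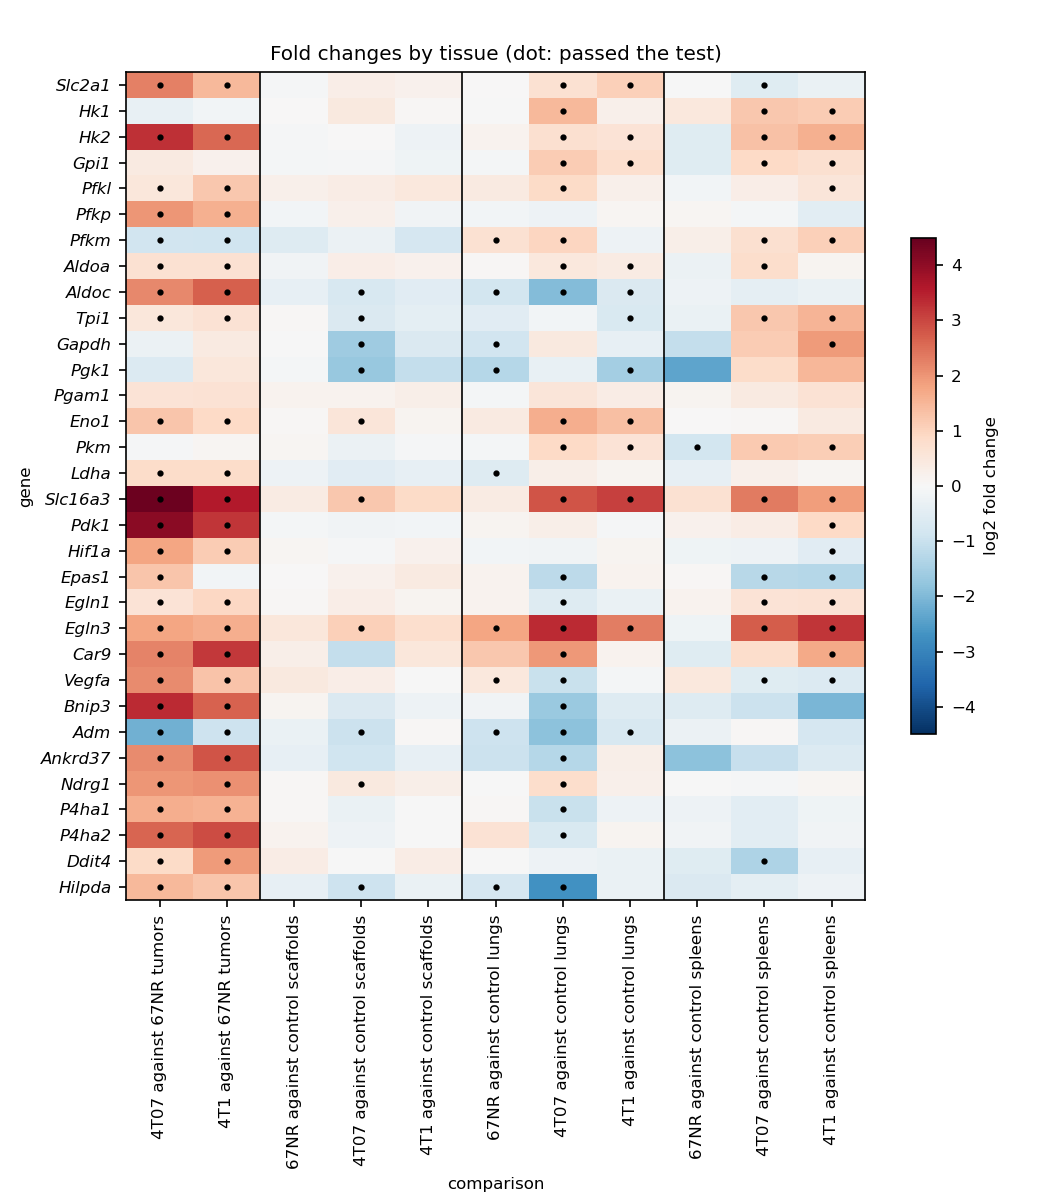
Log2 fold change of each gene (rows) in 11 comparisons (columns), red for higher and blue for lower, with a dot where the gene passed the test. The tumor columns share the 67NR tumors and the columns of each other tissue share its control group. Slc16a3 and Egln3 are red with dots in both tumor columns and in the 4T07 and 4T1 columns of lungs and spleens, and the scaffold columns of 67NR and 4T1 hold no dot.

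The difference of a comparison between tissues was tested as an interaction in a fit of all 45 libraries, with members counted at an adjusted p under 0.10 and a difference over 1 on the log2 scale. For 4T1 against 67NR, 19 members differed between tumors and scaffolds (18 more positive and 1 less positive in tumors), where 8.54% of all genes were more and 5.95% less positive (14.5%). Between tumors and lungs 15 differed (14 and 1), where 11% and 7.23% of all genes did (18.2%), and between tumors and spleens 20 (13 and 7), where 16.4% and 12% did (28.4%). The log2 fold change of Pdk1 was greater in tumors by 3.26 ± 0.26 (SE, adjusted p = 4.66e-13) from scaffolds, 3.48 ± 0.26 (SE, adjusted p = 3.58e-14) from lungs and 2.54 ± 0.26 (SE, adjusted p = 2.18e-10) from spleens. Slc16a3 differed between tumors and spleens by 2.41 ± 0.60 (SE, adjusted p = 0.00157) although it rose in both. The 7 members more positive in spleens were Egln3, Pfkm and the enzymes Gpi1, Tpi1, Gapdh, Pgk1 and Pkm, with a difference of tumors minus spleens for Egln3 of -1.75 ± 0.47 (SE, adjusted p = 0.00374) and for Pkm of -1.80 ± 0.29 (SE, adjusted p = 5.26e-06). For 4T1 against control, 2 members differed between scaffolds and lungs (0.911% of all genes), namely Slc16a3 by -2.19 ± 0.50 (SE, adjusted p = 0.0122) and Eno1 by -1.21 ± 0.32 (SE, adjusted p = 0.0509), 9 between scaffolds and spleens (10.1%) and 7 between lungs and spleens (10.8%). The enzymes Hk2, Pfkm, Tpi1, Gapdh and Pgk1 were more positive in spleens than in both other tissues, and Epas1 less, with a difference of lungs minus spleens of 1.45 ± 0.30 (SE, adjusted p = 0.00101). Without TMM factors the split between tumors and spleens was 17 and 5, between scaffolds and spleens 4 and 6 against 1 and 8, and between lungs and spleens 4 and 4 against 2 and 5.

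The levels in the tissues of healthy mice set the base for these comparisons, and there a gene passed at an adjusted p under 0.05 in the fit of all libraries. TMM scaling between tissues assumes that most genes are alike, which was not tested. Control scaffolds were higher than control lungs in 20 members and lower in 3, where 16.7% of all genes were higher and 17% lower (33.7%), and higher than control spleens in 21 and lower in 4, where 18.4% were higher and 16.9% lower (35.3%). Hk2 measured 87.7, 107 and 108 CPM in control scaffolds, 23.7, 23.6 and 18.5 CPM in control lungs and 21.7, 29.5 and 24.4 CPM in control spleens. Scaffolds exceeded both organs without overlap, lungs by 2.45 ± 0.21 (SE, adjusted p = 4.83e-13) on the log2 scale. Slc2a1, at 48.9, 67.5 and 58.2 CPM in control scaffolds, exceeded lungs by 2.30 ± 0.21 (SE, adjusted p = 1.05e-12) and spleens by 1.25 ± 0.20 (SE, adjusted p = 1.3e-06). Scaffolds also exceeded lungs in Eno1, Pkm, Ldha, Slc16a3, Car9, Ndrg1 and Egln3, by 2.47, 2.19, 1.56, 2.69, 2.62, 2.24 and 1.76. The levels behind these in control scaffolds were 1183, 919 and 883 CPM of Ldha, 184, 181 and 197 CPM of Pkm and 21.6, 20.9 and 15.0 CPM of Eno1. The 3 members higher in lungs were Vegfa, Epas1 and Hilpda. Vegfa, at 5.03, 5.07 and 7.56 CPM in control scaffolds, differed from lungs by -4.89, Epas1, at 125, 165 and 158 CPM, by -3.12, and Hilpda by -1.31 on the log2 scale.

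P4ha2 measured 24.1, 26.6 and 34.9 CPM in control scaffolds, 17.8, 27.0 and 33.8 CPM in control lungs and 3.50, 3.23 and 2.80 CPM in control spleens. Spleens were lowest without overlap, and scaffolds exceeded them by 3.36 ± 0.33 (SE, adjusted p = 1.08e-11). Aldoc, Pgk1, Tpi1, Slc16a3 and Hilpda were also higher in scaffolds than in spleens, by 2.57, 2.50, 2.46, 2.44 and 2.01. Hif1a measured 162, 240.4 and 176 CPM in control scaffolds, 116, 120.5 and 111 CPM in lungs and 110.3, 102 and 119 CPM in spleens. It was higher in scaffolds than in lungs and spleens, by 0.98 and 1.01, and lungs and spleens overlapped. Control lungs exceeded control spleens in 11 members and were lower in 8, where 20.3% of all genes were higher and 19.4% lower (39.7%). Epas1, Vegfa, Hilpda and P4ha2 were higher in lungs by 3.70, 3.60, 3.32 and 2.98, and Eno1 and Ddit4 were lower, at -2.14 and -1.58. Ddit4 measured 8.39, 19.8 and 22.8 CPM in control scaffolds and 25.6, 27.0 and 23.8 CPM in control lungs, all below the control spleens. The summed fibroblast markers were 8317 to 12051 CPM in control scaffolds, 1205 to 1405 CPM in lungs and 367 to 396 CPM in spleens. In the same order the macrophage markers were 3390 to 3624, 461 to 484 and 1841 to 2399.7 CPM. The endothelial markers were 398 to 440, 3817 to 4259 and 530 to 688 CPM. The part of these cells in the differences between tissues was not tested.

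Over all 15 groups the highest mean lay in a tumor group for 23 of the 32 genes, in 4T1 tumors for 12, in 4T07 tumors for 10 and in 67NR tumors for Adm. No share over all genes is given for this count, so it is not read as particular to the members. These means are CPM scaled to library totals only, across tissues of different make-up. The widest ranges were those of Car9, from a mean of 0.411 CPM in control lungs to 98.4 ± 18.6 CPM (SD, n = 3) in 4T1 tumors, and of Egln3, from 0.805 CPM in control lungs to 117 ± 35.3 CPM in 4T07 tumors. No control lung held more than 4 counts of Car9 or 6 counts of Egln3, so the low ends of both ranges rest on few tags. Slc16a3, Pdk1, Epas1 and Pfkp had their lowest mean in 67NR tumors, at 2.88, 7.93, 37.6 and 19.6 CPM. Aldoa, Pfkp and Slc16a3 were highest in 4T07 scaffolds, at 894 ± 87.8, 143 ± 23.7 and 82.1 ± 31.5 CPM, Epas1 and Vegfa in 67NR lungs, at 1865 ± 74.1 and 311 ± 16.2 CPM, and Hilpda in control lungs, at 657 ± 82.6 CPM. Neighbors in these orders mostly overlapped: for 31 of the 32 genes at least 9 of the 14 neighboring pairs of groups did, and for Pfkm and Pgam1 all 14 did. Over the 21 comparisons within tissues, Slc16a3, Egln3 and Vegfa passed most often, 12 times each, with 11, 11 and 4 of these higher in the first-named group, and Pgam1 never passed.

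Isozymes and partner genes were also set against each other as the ratio of their counts within a library, given as a median of 3 libraries with no test. Each ratio is read between groups only, since the counts of different genes are not on a common scale. Hk2 over Hk1 had a median of 0.91 in 67NR tumors, 10.5 in 4T07 tumors and 4.66 in 4T1 tumors, between 1.80 and 2.21 in the 4 scaffold groups, and below 1 in every lung and spleen library, with medians from 0.155 in 67NR spleens to 0.577 in 4T1 lungs. Pfkp over Pfkl was 11.4 to 13.7 in scaffolds but 0.582, 1.68 and 0.822 in 67NR, 4T07 and 4T1 tumors. In the same order of tumors Pfkm over Pfkl was 0.776, 0.271 and 0.170, and Aldoc over Aldoa was 0.0235, 0.0664 and 0.0978. Egln3 over Egln1 was 0.0206 in control lungs, 0.400 in 4T07 lungs and 0.164 in 4T1 lungs, 0.118 in control spleens against 0.482 and 0.649 in 4T07 and 4T1 spleens, and 0.940, 1.96 and 2.03 in the tumors. Epas1 over Hif1a was 13.0 in control lungs and 6.18 in 4T07 lungs, 1.11 in control spleens and 0.524 and 0.582 in 4T07 and 4T1 spleens, and 0.354, 0.267 and 0.170 in the tumors. P4ha2 over P4ha1 in the tumors was 0.196, 0.453 and 0.563. Ldha over Ldhb, the heart-type subunit, was 722, 177 and 184 in the tumors, where Ldhb was at most 1.13 CPM in 67NR, and 7.11 in control lungs against 39.4 in 4T07 and 13.3 in 4T1 lungs.

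**Figure D5:**
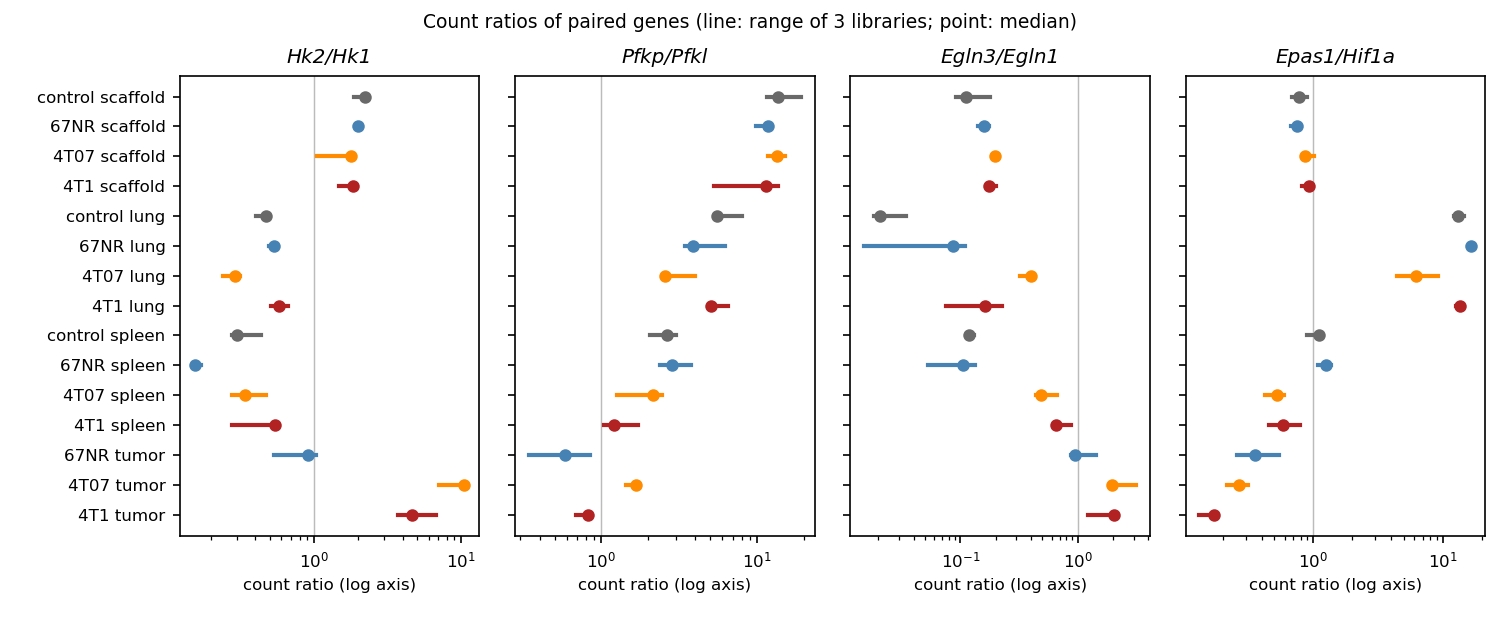
Ratio of counts within a library, on a log axis, for 4 pairs of genes in the 15 groups, with a line for the range of 3 libraries and a point for the median. For Hk2 over Hk1 the 4T07 tumors lie between 7.03 and 10.7 and the 67NR tumors between 0.536 and 1.03, and for Epas1 over Hif1a the lungs lie to the right of every other tissue.

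Other genes of these pathways, listed by name apart from the 32, were counted in the comparisons of the 4T1 mice. In 4T1 against 67NR tumors 7 of 32 other glycolysis genes tested were higher and 2 lower with a median log2 fold change of 0.019, and 26 of 48 other HIF pathway genes were higher and 3 lower with a median of 0.97, where 16.7% of all genes were higher and 14.8% lower. Car12, another carbonic anhydrase, averaged 0.371 CPM in 67NR tumors, with at most 2 counts in a library, and 33.5 CPM in 4T1 tumors, and the adenylate kinase Ak4 averaged 0.828 and 44.2 CPM. The lysyl oxidase Loxl2 rose by 3.53 on the log2 scale, and the largest falls were those of Taldo1 of the pentose phosphate pathway at -1.84, Angptl4 at -1.11 and Egln2 at -1.06. Between 4T1 and 4T07 tumors 1 of 32 and 4 of 48 were higher and 2 and 10 lower, where 7.69% of all genes were higher and 6.98% lower, with Pdk3 and Car12 higher at 1.53 and 0.94 and Eno2, Nos2 and Mt2 lower at -2.36, -1.91 and -1.31. In 4T1 against control lungs 7 of 34 glycolysis genes were higher and 4 lower, and 5 and 5 of 49 HIF genes, where 7.45% of all genes were higher and 4.34% lower, led by the glucose transporter Slc2a3 at 3.21, Pygl at 1.62 and G6pdx at 1.54 and by falls of Ppp1r3c, Igfbp3 and Fam162a at -1.07, -0.93 and -0.89. In 4T1 against control spleens 13 of 32 and 16 of 49 were higher and 2 and 5 lower, where 18% of all genes were higher and 17.1% lower, led by Upp1, Mt1 and Slc2a3 at 3.11, 2.11 and 2.04 and by Rora, Igfbp3 and Cxcl12 at -1.77, -1.25 and -1.08. In 4T1 against control scaffolds edgeR called 0 of 33 glycolysis and 0 of 48 HIF genes and 0.0226% of all genes. At an unadjusted p under 0.05 there were 5 and 7 of these lists. The share of all genes at that threshold is not given, so these counts are not read as particular to the lists. No other tool was run on them.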

How the data were processed

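RNA of 45 tissue samples was made into QuantSeq 3′ mRNA libraries with unique molecular identifiers and sequenced on a NovaSeq instrument. Per the labels, the submitters' processing notes name Trim Galore 0.5.0, STAR 2.6.0 and featureCounts, and the genome build, annotation, strand setting and use of the identifiers in counting are not given in the sources used here. The authors deposited raw counts per gene symbol, and 120 repeated symbols among 55487 lines were summed. Groups were taken from the sample labels, and the replicate numbers are library numbers. Library totals were 3491888 to 8175380 counts, and intervals were not drawn from them, so the depth enters through the test.

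Each tissue was fitted with all its groups in edgeR 4.0.16 (R 4.3.3, limma 3.58.1) with TMM factors and the quasi-likelihood F test, on genes with more than 10 counts over its libraries (20508 in tumors, 22156 in scaffolds, 21937 in lungs and 21128 in spleens), and control tissues and differences between tissues in 1 fit of all libraries (27656 genes). Adjustment was by Benjamini-Hochberg over all genes tested, with thresholds of 0.05 for tumors and control tissues and 0.10 elsewhere. The scripts were tested on simulated data. Fold changes carry their standard error (SE). CPM were computed from library totals without TMM factors. Within groups, 0 of 45 pairs of libraries held identical counts.

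All 32 genes were reported by role. Values in every sample were given for the called members with the largest changes of each role, up to 3 in each comparison, and further pathway genes were named by the 3 largest changes in each direction at a mean of at least 5 CPM, except a result that is not reported here. The members and lists were chosen with earlier results of these data known. Alternatives were DESeq2 1.42.0, its size factors in edgeR, library totals without TMM factors, no count filter, leaving out each library, and, chosen after seeing the data, adding Eno1b to Eno1 and requiring a fold change over 2. Promoter sequences are from RefSeq on GRCm38.p6.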

Additional observations from a re-analysis of the deposited data

Results flagged for a closer look

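The results that stood out were differences of the same contrast between tissues, each tested as an interaction in the fit of all libraries. For 4T1 against 67NR, 19 of the 32 genes differed between tumors and scaffolds, 15 between tumors and lungs and 20 between tumors and spleens. Of all genes tested, 14.5%, 18.2% and 28.4% differed in the same order. For 4T1 against control, 2 members differed between scaffolds and lungs, 9 between scaffolds and spleens and 7 between lungs and spleens. Here 0.911%, 10.1% and 10.8% of all genes differed.

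In 5 cases the gene passed in opposite directions in the 2 tissues. Vegfa was higher in 4T1 than in 67NR tumors by 1.29 on the log2 scale but lower in lungs by 0.55, an interaction of 1.91 (adjusted p = 1.61e-06), and lower in spleens by 1.09, an interaction of 2.43 (adjusted p = 6.98e-08). The call in lungs was lost without 67NR replicate 14 or 15 or 4T1 replicate 37 or 38 (highest adjusted p 0.166). Pfkp was higher in 4T1 tumors by 1.61 and lower in 4T1 spleens by 0.53, an interaction of 2.20 (adjusted p = 6.92e-08), and the call in spleens was lost without any 1 of the 67NR or 4T1 spleens (highest adjusted p 0.162). Pfkm went the other way, lower in 4T1 tumors by 0.91 and higher in 4T1 spleens by 0.82, an interaction of -1.67 (adjusted p = 0.000378), with the tumor call lost without 67NR replicate 19 or 4T1 replicate 44 (highest adjusted p 0.0837). Tpi1 was lower in 4T1 than in control lungs by 0.68 and higher in 4T1 than in control spleens by 1.53, an interaction of -2.21 (adjusted p = 3.83e-06), with the lung call lost without control replicate 4 or 5 or 4T1 replicate 38 (highest adjusted p 0.197). The counting of Tpi1 carries the doubt given above for genes with copies. Groups of 3 samples were not searched for outlying samples.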

How the results depend on the processing

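No call of a member in a comparison changed direction under the alternatives run. Values that had not passed could: with Eno1b added, Eno1 went from -0.35 to 0.25 in 4T1 against 4T07 tumors and from 0.015 to -0.32 in 67NR against control spleens, on the log2 scale. Adding Eno1b also made Eno1 pass where Eno1 alone had not. In 4T1 against 4T07 lungs its value became -1.02 (adjusted p = 0.000101). In 4T1 spleens it became 0.92 against control (adjusted p = 0.00675) and 1.24 against 67NR (adjusted p = 0.000851). In 4T07 against 67NR spleens it became 0.76 (adjusted p = 0.0296). DESeq2 was run on the comparisons within tissues only. Of those calls of single genes, 4 were lost with DESeq2 and 237 kept, and DESeq2 gave Car9 no adjusted p between 4T1 and 4T07 scaffolds. Size factors, library totals and the count filter were also varied for the calls between control tissues. Over all of these calls, 7 were lost with size factors and 302 kept, and 24 lost with library totals and 285 kept. Without the count filter 14 were lost and 295 kept. Under these 4 alternatives the counts of members called moved by over 1.5 times only where they were 0 to 2. Between 4T1 and 4T07 scaffolds 1 member became 0 with library totals, 4 without the filter and 3 with DESeq2. In 4T1 against control scaffolds 0 became 3 without the filter and 1 with DESeq2, and in 4T1 against 67NR scaffolds 1 under each. Between 4T1 and 4T07 spleens 1 became 2 with size factors or library totals and 3 without the filter or with DESeq2, in 67NR against control spleens 1 became 2 with library totals, 5 without the filter and 4 with DESeq2, and between scaffolds and lungs the interaction count of 2 became 1 with library totals. The cause was not tested. Over all genes the scaffold comparisons with 0 members held 0, 5 and 5 calls in edgeR and 1, 561 and 328 in DESeq2 (67NR against control, 4T1 against control and 4T1 against 67NR).

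Requiring a fold over 2 as well, chosen after seeing the data, gave 3 members between 4T1 and 4T07 tumors, 4 and 3 in 4T07 against control and 67NR scaffolds, 2, 12 and 5 in 67NR, 4T07 and 4T1 against control lungs, 13 and 3 in 4T07 and 4T1 against 67NR lungs and 11 between 4T1 and 4T07 lungs. In spleens it gave 0, 8 and 10 in 67NR, 4T07 and 4T1 against control, 11 in 4T1 against 67NR and 0 between 4T1 and 4T07. The counts of the comparisons of tumors with 67NR, of 4T07 with 67NR spleens and of the other scaffolds stayed within 1.5 times.

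Leaving out each library gave 23 to 26 members in 4T07 and 23 to 25 in 4T1 against 67NR tumors and 6 to 14 between 4T1 and 4T07 tumors, where the count was 11. In scaffolds the ranges were 0 to 0 for 67NR and 4T1 against control and 4T1 against 67NR, 6 to 14 for 4T07 against control, 3 to 11 for 4T07 against 67NR and 0 to 3 for 4T1 against 4T07. In lungs they were 3 to 11, 21 to 24 and 6 to 12 for 67NR, 4T07 and 4T1 against control, 21 to 24 and 4 to 11 for 4T07 and 4T1 against 67NR and 13 to 22 for 4T1 against 4T07, so that larger counts such as the 12 of 4T1 against control and the 22 of 4T1 against 4T07 lungs also moved by over 1.5 times. In spleens they were 0 to 5, 10 to 15 and 13 to 18 against control, 13 to 16 and 14 to 18 against 67NR and 0 to 5 for 4T1 against 4T07. Leaving out libraries in the fit of all 45 was not run.

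Without TMM factors the median of all genes moved by 0.25 and 0.20 on the log2 scale in 4T07 and 4T1 against 67NR tumors, by -0.17 to -0.35 in the comparisons of 4T07 and 4T1 with control and 67NR spleens, and by up to 0.46 in an interaction. No paired analysis was possible because every library has a number of its own. With 3 libraries and members as low as 0 counts (Bnip3 and Ankrd37) or 1 count (Car9) in a library, depth limits those genes.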
